A study of Mus musculus with 4 samples.

Results

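Platelets stick and aggregate through integrins, receptors of paired alpha and beta chains, and the data described here are the RNA levels of 10 genes of that system in a mouse megakaryoblastic leukemia. The genes are Itga2b and Itgb3, the chains of the platelet fibrinogen receptor; Itga2 and Itga6, alpha chains of a collagen and a laminin receptor, and Itgb1, the beta chain that pairs with both; Rasgrp2, Rap1b, Tln1 and Fermt3, which switch integrins on from inside the cell; and Cd9, a tetraspanin that sits beside integrins in the platelet membrane. The 10 members were set by name. They were matched to 27 of the 45101 probe sets, each paired with a single gene, and are 10 of the 18193 genes so named. Where a gene had several probe sets, its main one was that with the highest mean log2 value across the 4 arrays.

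The cells were leukemic blasts taken directly from the spleen and from the peripheral blood of each of 2 mice, which gave 2 spleen and 2 blood arrays. All of them carried the leukemia designation T6(6), arose from fetal progenitors with the Gata1s mutation that had undergone retroviral insertional mutagenesis, bore the GFP reporter of the virus and were sorted as GFP+. No treatment was given, and no unmutated or non-leukemic sample was analysed here. Age, strain and whether the mice shared 1 leukemic clone are not given in the sources used here, and mutagenesis makes each leukemia a model of its own insertions.

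An integrin at rest binds its ligand weakly. When a platelet is stimulated, calcium switches on Rasgrp2 (CalDAG-GEFI), which loads the small GTPase Rap1b with GTP. Rap1b in turn helps to bring talin, the product of Tln1, to the tail of the beta chain, where kindlin-3, the product of Fermt3, binds as well, and the receptor opens. Itga2b is made early and strongly in the megakaryocyte lineage and is used as its marker, whereas Itgb1, Rap1b and Tln1 are used by most cells.

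Upstream sequences are shown for 3 members, Itga2b because it is the lineage marker of the list, and Itgb1 and Rap1b because both spleen arrays stood above both blood arrays for these members. Each is the 250 bases before the RefSeq start site, read 5′ to 3′ on the gene's strand in build GRCm38.p6, at chr11:102469884-102470133 (minus strand), chr8:128685404-128685653 (plus strand) and chr10:117845975-117846224 (minus strand). Capitals mark matches on either strand to the ETS core (AGGAA or CGGAA) or to the GC box (GGGCGG).
Itga2b: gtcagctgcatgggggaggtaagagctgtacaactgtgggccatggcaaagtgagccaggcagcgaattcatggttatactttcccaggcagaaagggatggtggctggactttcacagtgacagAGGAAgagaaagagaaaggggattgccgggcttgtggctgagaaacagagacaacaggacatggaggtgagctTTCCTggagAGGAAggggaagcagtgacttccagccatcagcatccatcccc
Itgb1: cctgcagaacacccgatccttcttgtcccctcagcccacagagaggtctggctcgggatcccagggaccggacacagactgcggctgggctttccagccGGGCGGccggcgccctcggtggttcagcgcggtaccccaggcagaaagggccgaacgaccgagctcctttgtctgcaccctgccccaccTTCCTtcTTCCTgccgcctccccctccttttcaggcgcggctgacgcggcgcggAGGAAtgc
Rap1b: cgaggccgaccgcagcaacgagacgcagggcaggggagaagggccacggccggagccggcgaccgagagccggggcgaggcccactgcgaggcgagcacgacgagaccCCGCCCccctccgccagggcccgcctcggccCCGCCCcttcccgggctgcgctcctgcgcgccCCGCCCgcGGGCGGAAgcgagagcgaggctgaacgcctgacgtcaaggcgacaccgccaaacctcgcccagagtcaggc
The stretch of Itga2b held 3 ETS cores and no GC box, with 54.0% G and C. That of Itgb1 held 3 ETS cores and 1 GC box with 68.0% G and C, and that of Rap1b held 1 ETS core and 4 GC boxes with 77.2%, the ETS core overlapping the last GC box. Among all 32851 upstream stretches of the table, which had a median of 52.4% G and C, 71.4% held the ETS core, 32.7% the GC box and 22.6% GATAA, the core bound by GATA factors. None of the 3 printed stretches held GATAA. These are matches of letters and not mapped binding sites. RefSeq stretches were matched for 8 of the 10 members, Itgb3 and Itga6 not among them.

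The arrays were alike in brightness, with medians from 103.7 to 110.6. Megakaryocyte markers were present: of 13 markers listed, 11 were matched and all 11 passed the brightness filter, a mean over the arrays of at least the median probe set's (an intensity of 106), and Pf4, a platelet chemokine, stood at 8341 and 8680 in spleen and at 7507 and 7767 in blood. The summed intensity of 12 granulocyte markers was 5983 and 2668 in spleen of mouse 1 and mouse 2, against 7953 and 18247 in blood of mouse 1 and mouse 2. The 11 macrophage and monocyte markers summed to 2117 and 1091 in spleen and to 1377 and 3243 in blood of mouse 1 and mouse 2. Blood of mouse 2 was highest and spleen of mouse 2 lowest in both sums, although all cells were sorted. The summed 11 T and NK cell markers did so too, with 9453 and 5312 in spleen against 7733 and 11554 in blood. Gzma, a cytotoxic protease, followed that order, with 2757 and 171 in spleen against 1338 and 3486 in blood. The T cell genes Cd3e, Cd3g and Cd4 did not and were highest in blood of mouse 1, at 288, 322 and 425. Cd8a was highest in spleen of mouse 1, at 222. Camp, a neutrophil granule peptide, was below 0 in spleen of mouse 2, and C1qa, a macrophage gene, was below 0 there and in blood of both mice. In spleen of mouse 1 C1qa stood at 132. Not every gene followed the sum of its list. C1qb, of the macrophage list, had 273 and 60.8 in spleen against 30.9 and 62.2 in blood. Prtn3, of the granulocyte list, had 1609 and 1340 in spleen against 951 and 931 in blood. Sums of B cell markers lay between 891 and 1020, of erythroid markers between 3567 and 3948 and of endothelial and stromal markers between 823 and 1014. Values below 0 counted as 0 in the sums. The part of other cells in the results was not tested. RNA of bulk samples cannot tell fewer cells of a type from less RNA per cell.

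**Figure D1:**
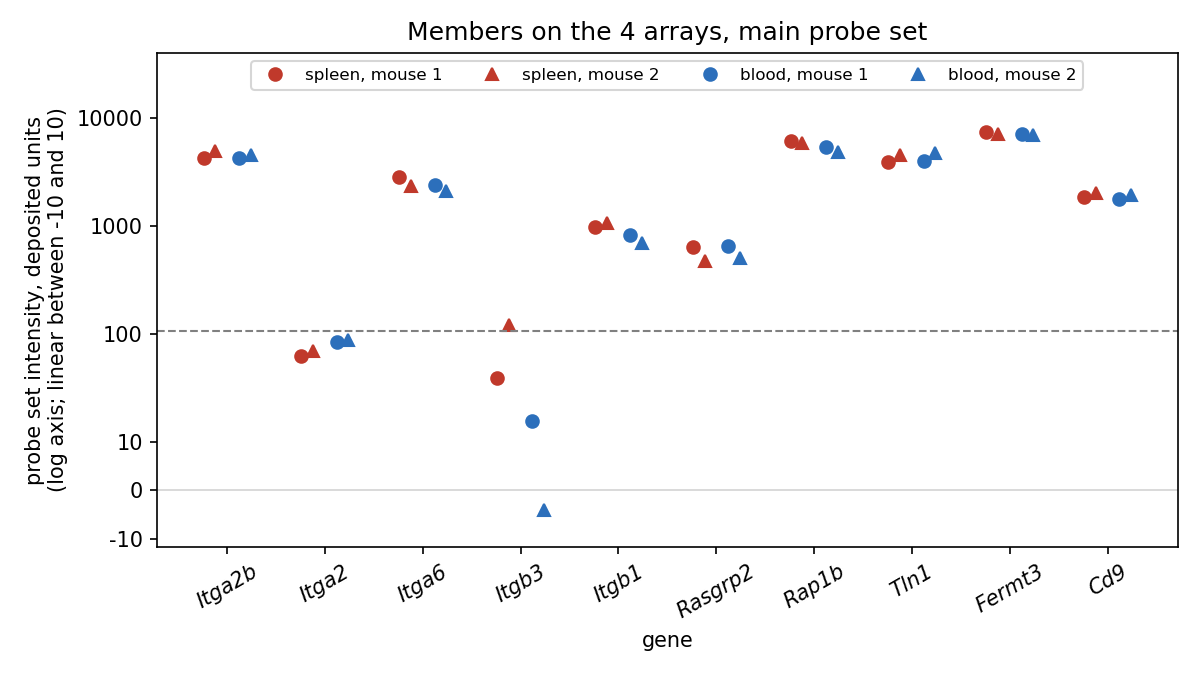
Intensity of the main probe set of each member on the 4 arrays (vertical log axis in deposited units, linear between -10 and 10). Red marks spleen and blue blood, circles mouse 1 and triangles mouse 2, and the dashed line is the brightness filter at 106; Itga2 lies below it on all 4 arrays and Itgb3 on 3 of 4.

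Among the alpha chains, Itga2b and Itga6 were bright in both tissues, and Itga2 was dim. Itga2b, the fibrinogen receptor chain, had intensities of 4237 and 4990 in spleen of mouse 1 and mouse 2, against 4247 and 4512 in blood. The tissues overlapped, and the arrays spanned 1.18-fold from lowest to highest. Spleen minus blood on the log2(intensity + 16) scale was -0.0033 in mouse 1 and 0.14 in mouse 2, and the estimate by limma, a linear model that shares the spread among genes, was 0.07 ± 0.13 (SE, 2 arrays per tissue; adjusted p = 0.858 over all tested genes). Its 95% interval ran from -0.25 to 0.39. Without the spleen array of mouse 2 the estimate was -0.05.

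Itga6, the laminin receptor chain, had intensities of 2848 and 2373 in spleen of mouse 1 and mouse 2, against 2413 and 2127 in blood. Within each mouse the spleen array was the higher one, but the tissues overlapped, since spleen of mouse 2 lay below blood of mouse 1. The within-mouse log2 differences were 0.24 and 0.16, with a limma estimate of 0.20 ± 0.14 (SE, 2 arrays per tissue; adjusted p = 0.600). The estimate was 0.07 without the spleen array of mouse 1, 0.11 without the blood array of mouse 2 and 0.33 without the spleen array of mouse 2. The second probe set of Itga6 was also higher in spleen in both mice, at 1736 and 1410 in spleen against 1537 and 1131 in blood.

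Itga2, the collagen receptor chain, had intensities of 63.4 and 70.6 in spleen, against 85.5 and 89.1 in blood of mouse 1 and mouse 2. All 4 values lay below the filter of 106, so the gene was not tested. Both spleen arrays were below both blood arrays, with log2 differences of -0.35 and -0.28 within the mice. With no filter limma gave -0.32 ± 0.12 (SE, 2 arrays per tissue; adjusted p = 0.574). The value table used holds no detection calls, so whether such dim signals lie above background is not known here.

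The beta chains differed in brightness relative to the filter. Itgb3, which pairs with Itga2b, had 2 probe sets, neither of which reached it. The main one had intensities of 39.7 and 123 in spleen of mouse 1 and mouse 2, against 15.9 and -4.17 in blood. The other was below 0 on all 4 arrays, between -128 and -87.7. Spleen was the higher array within each mouse for the main probe set, by 0.81 and 3.11 on the log2 scale, and the spread between the mice was wide. Since the blood value of mouse 2 was set to 0 before the offset of 16 was added, the size of the mean difference of 1.96 rests on the offset. It was 4.11 with an offset of 1 and 0.96 with an offset of 64. Itgb3 was not tested at the filter, and with no filter its adjusted p was 0.563. A dim probe set does not show that the gene was silent.

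Of the 3 genes most like Itgb3 in their 4 array values, by Euclidean distance of log2 values centred on each gene's mean, Treml1 was the nearest, at a distance of 0.94. Treml1, a receptor of platelet granules, had intensities of 232 and 319 in spleen of mouse 1 and mouse 2, against 82.8 and 73.8 in blood. Ankrd36 followed at a distance of 1.19 and Kif4, a mitotic kinesin, at 1.22. In mouse 1 spleen minus blood was -0.07 for Ankrd36, 0.73 for Kif4 and 1.33 for Treml1, against 0.81 for Itgb3. In mouse 2 it was 1.69, 1.39 and 1.90 in the same order, against 3.11 for Itgb3. Only tested genes were searched, and the distances rest on the offset of 16. With 4 arrays, 1 of them below 0 for Itgb3, this is a description of those arrays.

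Itgb1, the shared beta chain of the collagen, laminin and fibronectin receptors, was the tested member with the largest difference. Its main probe set had intensities of 977 and 1068 in spleen of mouse 1 and mouse 2, against 832 and 704 in blood. Both spleen arrays were above both blood arrays. The within-mouse log2 differences were 0.23 and 0.59, and the limma estimate was 0.41 ± 0.13 (SE, 2 arrays per tissue), with an unadjusted p of 0.0217 and an adjusted p of 0.342, so it did not pass over all genes. The 95% interval before adjustment was 0.08 to 0.73.

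Itgb1 had 6 probe sets, of which 4 reached the filter, and all 4 were higher in spleen in both mice. Another bright one had 890 and 820 in spleen against 732 and 641 in blood, and another had 850 and 911 in spleen against 730 and 708 in blood. The main probe set carries the suffix that Affymetrix gives where some probes may match other sequences. A dim one gave spleen minus blood values of -0.44 in mouse 1 and 0.09 in mouse 2, and another dim one gave -0.0047 and 0.61. With the mean of all probe sets the estimate was 0.27 (adjusted p = 0.434).

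**Figure D2:**
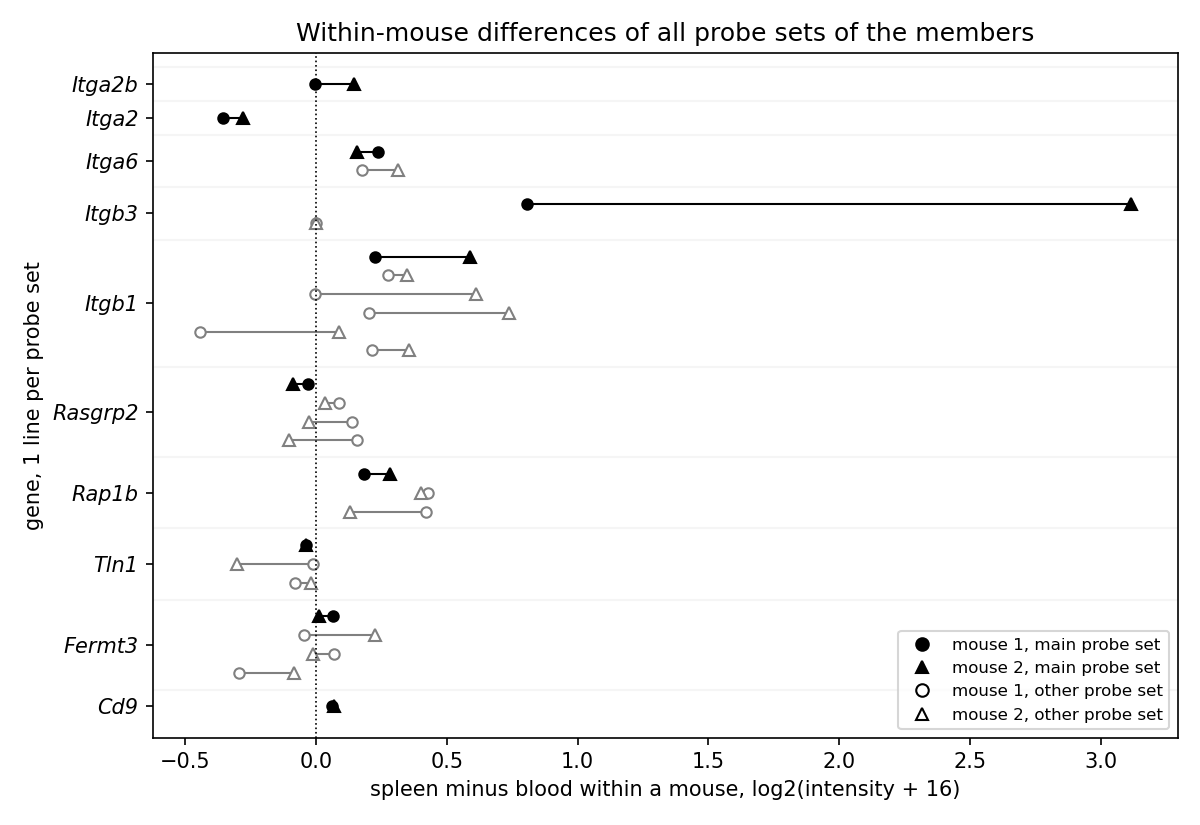
Spleen minus blood within mouse 1 (circles) and mouse 2 (triangles) for all 27 probe sets of the members, on the log2(intensity + 16) scale; filled black marks are the main probe set of a gene and open grey marks the others. The 3 probe sets of Rap1b and the 2 of Itga6 lie to the right of 0 in both mice, the 3 of Tln1 to the left, and those of Rasgrp2 and Fermt3 on both sides.

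In the activation pathway, Rap1b was higher in spleen in both mice and Rasgrp2, Tln1 and Fermt3 differed little. Rap1b, the main Rap GTPase of platelets, had intensities of 6166 and 5890 in spleen of mouse 1 and mouse 2, against 5420 and 4841 in blood. Both spleen arrays were above both blood arrays, by 0.19 and 0.28 on the log2 scale within the mice. The limma estimate was 0.23 ± 0.12 (SE, 2 arrays per tissue; adjusted p = 0.481), and without the blood array of mouse 2 it was 0.15.

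The other probe sets of Rap1b had the same direction in both mice. One had 2958 and 2621 in spleen against 2195 and 1980 in blood, which are log2 differences of 0.43 and 0.40 within the mice. The other had 1815 and 1498 in spleen against 1353 and 1367 in blood, by 0.42 and 0.13. With the mean of the 3 probe sets the estimate for Rap1b was 0.31 (adjusted p = 0.343).

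Rasgrp2, the exchange factor upstream of Rap1b, had intensities of 648 and 480 in spleen of mouse 1 and mouse 2, against 662 and 512 in blood. The tissues overlapped, and the mice differed more than the tissues did. Spleen minus blood was -0.03 in mouse 1 and -0.09 in mouse 2, with a limma estimate of -0.06 ± 0.19 (SE, 2 arrays per tissue; adjusted p = 0.920). The estimate turned to 0.15 without the spleen array of mouse 2, to 0.12 without the blood array of mouse 1 and to 0.02 with the mean of all probe sets. The other 3 probe sets of Rasgrp2, with intensities from 187 to 256, went the other way in mouse 1, by 0.09, 0.14 and 0.16, and gave 0.03, -0.03 and -0.10 in mouse 2. No direction between the tissues held across the probe sets of this gene.

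Tln1, talin, had intensities of 3950 and 4594 in spleen of mouse 1 and mouse 2, against 4051 and 4719 in blood. Spleen minus blood was -0.04 in both mice, and the tissues overlapped. The limma estimate was -0.04 ± 0.14 (SE, 2 arrays per tissue; adjusted p = 0.933), with a 95% interval from -0.38 to 0.30. All 3 probe sets of Tln1 were lower in spleen in both mice, with differences from -0.01 to -0.30. The sign of the estimate turned with the arrays centred on their medians (0.0060), without the spleen array of mouse 1 (0.07) and without the blood array of mouse 2 (0.07).

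Fermt3, kindlin-3, which is made in blood cells and is needed for integrins of platelets and leukocytes to open, had intensities of 7452 and 7078 in spleen, against 7112 and 7027 in blood of mouse 1 and mouse 2. Its main probe set spanned 1.06-fold from the lowest to the highest array, with a standard deviation of 2.69% of the mean, and its other 3 probe sets spanned 1.15- to 1.41-fold. The within-mouse log2 differences were 0.07 and 0.01, and the limma estimate was 0.04 ± 0.11 (SE, 2 arrays per tissue; adjusted p = 0.907) with a 95% interval from -0.23 to 0.31. Of its 4 probe sets 1 was higher in spleen in both mice, 1 was lower in both and 2 were mixed, and with the mean of the 4 the estimate was -0.0077. Without the spleen array of mouse 1 it was 0.0017.

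Cd9 had intensities of 1877 and 2024 in spleen of mouse 1 and mouse 2, against 1796 and 1929 in blood. The tissues overlapped, but within each mouse the spleen array was slightly higher, by 0.06 and 0.07. The limma estimate was 0.07 ± 0.12 (SE, 2 arrays per tissue; adjusted p = 0.851), and quantile normalization turned it to -0.02. It was 0.012 without the spleen array of mouse 2 and 0.015 without the blood array of mouse 1.

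**Figure D3:**
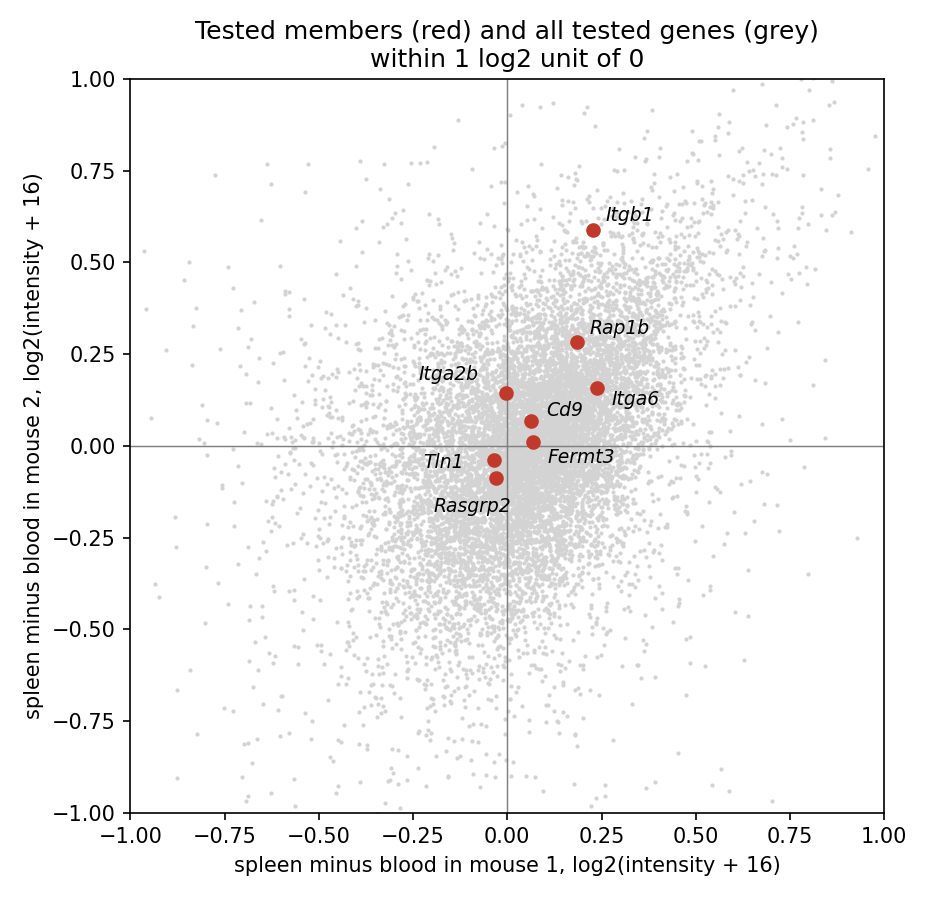
Spleen minus blood in mouse 1 (horizontal) and mouse 2 (vertical) on the log2(intensity + 16) scale, for the 8 tested members in red and all 11614 tested genes in grey, cropped at 1 log2 unit. Itgb1, Rap1b and Itga6 lie in the upper right part, and the other 5 members lie close to 0 within the grey cloud.

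Of the 10 members 8 passed the filter, Itga2 and Itgb3 being the exceptions, and were tested with the 11614 genes that did. With limma 0 of 8 had an adjusted p under 0.05, beside 0% of all tested genes. At an unadjusted p under 0.05 there was 1 member higher in spleen, Itgb1, and 0 lower, beside 8.12% and 4.31% of tested genes. That count of 1 became 0 with quantile normalization, without the spleen array of mouse 2 and without the blood array of mouse 2, and 2 with no filter or with an intensity trend in the prior. In both mice 5 of the 8 were higher in spleen and 2 were lower, beside 38.5% and 25.1%. Both spleen arrays stood above both blood arrays for 2 of the 8, Itgb1 and Rap1b, and below for 0, beside 27.5% and 17.6%. No difference between the members and all tested genes is read from counts over 8 genes. The median difference of the 8 members was 0.07 in mouse 1 and 0.11 in mouse 2, and that of all tested genes was 0.07 and 0.0065.

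The mice themselves were compared with 1 animal per side and no test. Tln1, Itga2b and Cd9 were higher in mouse 2 in both tissues, 3 of 8 tested members, beside 27.4% of tested genes. For Tln1 mouse 2 minus mouse 1 was 0.22 in spleen and 0.22 in blood, for Itga2b 0.24 and 0.09, and for Cd9 0.11 and 0.10. Itga6, Rasgrp2, Rap1b and Fermt3 were lower in mouse 2 in both tissues, 4 of 8, beside 30.7%. Mouse 2 minus mouse 1 was -0.07 in spleen and -0.16 in blood for Rap1b, and -0.07 and -0.02 for Fermt3. The main probe set of Rasgrp2 gave -0.42 in spleen and -0.36 in blood, while its other 3 probe sets were all higher in mouse 2 in both tissues, so the gene has no direction between the mice across its probe sets. For Fermt3, 2 of 4 probe sets were higher and 1 was lower in mouse 2 in both tissues, and for Tln1 1 of 3 was higher and 1 lower. Itga6 had both its probe sets lower in mouse 2, with differences of -0.26 and -0.30 in spleen and of -0.18 and -0.44 in blood.

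Other genes that help to switch integrins on or off went different ways. Of 30 such genes listed, 28 were tested and 0 passed over all genes with limma. At an unadjusted limma p under 0.05, 0 were higher and 3 lower, beside 8.12% and 4.31% of all tested genes. In both mice 5 were higher in spleen, 11 were lower and 12 were mixed, beside 38.5% higher and 25.1% lower among all tested genes. The median difference was -0.10, against 0.03 for all tested genes. These shares and this median of all tested genes also stand beside the counts of the lists that follow, and nothing particular to a list is read from them. In mouse 1 the median was 0.06 and in mouse 2 it was -0.16. Krit1, which binds Rap1 at the membrane, had 1123 and 1164 in spleen of mouse 1 and mouse 2, against 1363 and 1625 in blood (-0.38 ± 0.13, SE, 2 arrays per tissue; adjusted p = 0.356). Vcl, vinculin, which ties talin to actin, had 2249 and 1928 in spleen against 1775 and 1607 in blood (0.30 ± 0.13; adjusted p = 0.431). Rapgef3, an exchange factor for Rap1 that responds to cAMP, had 137 and 167 in spleen against 201 and 199 in blood (-0.36 ± 0.13; adjusted p = 0.364). These 3 genes were picked by their within-mouse difference, which favours tissues that do not overlap, and in all 3 they did not. In the whole list both spleen arrays stood above both blood arrays for 2 of 28 and below for 9. Among all tested genes the shares were 27.5% and 17.6%.

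Among genes that act after an integrin has bound its ligand, 22 of 29 were tested and 0 passed over all genes with limma, with 1 higher and 0 lower at an unadjusted p under 0.05. In both mice 9 were higher in spleen and 3 lower, and the median was 0.05. Vav3 had 260 and 259 in spleen against 201 and 186 in blood (0.39 ± 0.11, SE, 2 arrays per tissue; adjusted p = 0.305). Ptk2b, a kinase of the focal adhesion kinase family, had 1775 and 1648 in spleen against 1947 and 1813 in blood, and Ilk, the scaffold that links beta tails to actin, had 1841 and 1930 in spleen against 1685 and 1786 in blood. These 3 genes were picked in the same way, and in all 3 the tissues did not overlap. In the whole list both spleen arrays stood above both blood arrays for 8 of 22 and below for 3, beside 27.5% and 17.6%.

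**Figure D4:**
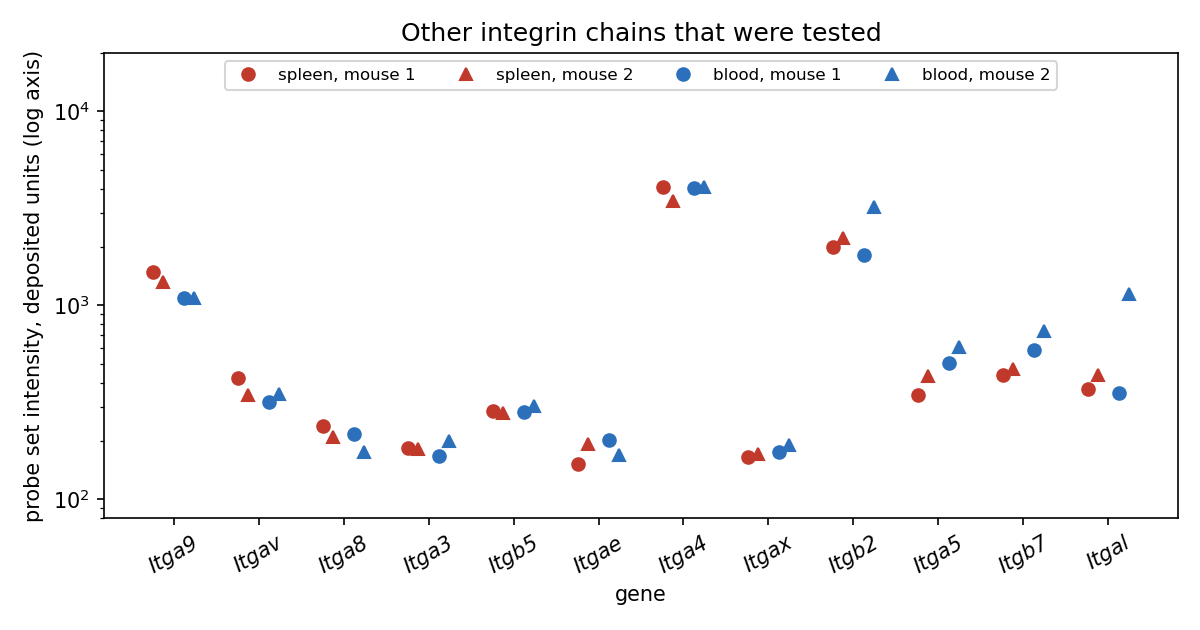
Intensity (vertical log axis, deposited units) of the 12 other integrin chains that were tested, ordered by spleen minus blood from left to right; red marks spleen and blue blood, circles mouse 1 and triangles mouse 2. Itga5, Itgb7 and, by little, Itgax have both spleen arrays below both blood arrays and Itga9 has both above. Itgal, Itgb2, Itga3, Itga4, Itga5, Itgax, Itgb5 and Itgb7 are highest in blood of mouse 2. Of all tested genes 17.6% have both spleen arrays below and 27.5% both above.

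Integrin chains other than those among the members were listed as well. Of 21 listed, 12 were tested, 0 passed over all genes with limma, and 1 was higher and 2 lower at an unadjusted p under 0.05. Spleen was the higher array in both mice for 2 and the lower for 3, and the median difference was -0.11. Itga4, a partner of Itgb1 that binds VCAM-1 and fibronectin, had 4059 and 3466 in spleen against 4031 and 4075 in blood of mouse 1 and mouse 2, which overlapped. Itga5, the fibronectin receptor chain and another partner of Itgb1, was lower in both mice, with 347 and 434 in spleen against 503 and 608 in blood (-0.49 ± 0.16, SE, 2 arrays per tissue; adjusted p = 0.341). Itgb7, a leukocyte beta chain that pairs with Itga4, had 437 and 470 in spleen against 592 and 738 in blood (-0.53 ± 0.14; adjusted p = 0.289). Itga9, a further partner of Itgb1, had 1479 and 1315 in spleen against 1095 and 1095 in blood (0.34 ± 0.12; adjusted p = 0.350). Among tested alpha chains that can pair with Itgb1, Itga6, Itga8 and Itga9 thus had the direction of Itgb1 in both mice, Itga5 had the opposite one, and Itga3, Itga4 and Itgav went different ways in the mice.

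Itgal and Itgb2, the chains of the leukocyte receptor LFA-1, were highest in blood of mouse 2. So were Itga3, Itga5, Itgax, Itgb5, Itgb7 and, by little, Itga4. The summed granulocyte and macrophage markers were highest there too. Those sums were lowest in spleen of mouse 2, but Itgal and Itgb2 were lowest in blood of mouse 1. Itgal had 373 and 439 in spleen of mouse 1 and mouse 2, against 355 and 1142 in blood, and Itgb2 had 1989 and 2231 in spleen against 1815 and 3216 in blood. In mouse 1 spleen minus blood was 0.07 for Itgal and 0.13 for Itgb2, and in mouse 2 it was -1.35 and -0.52. The part of other blood cells in this was not tested. Itgav, the other alpha chain that pairs with Itgb3, had 423 and 346 in spleen against 317 and 348 in blood. Itga8, with 239 and 211 in spleen against 217 and 175 in blood, was higher in both mice, and Itgax, with 165 and 171 in spleen against 176 and 191 in blood, was lower in both. Itga3, Itgae and Itgb5 went different ways in the mice, with log2 differences between -0.38 and 0.16.

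Of 24 other tetraspanins and membrane partners of integrins, 17 were tested, 0 passed over all genes with limma, and 2 were higher and 0 lower at an unadjusted p under 0.05. Spleen was the higher array in both mice for 9 and the lower for 3, and the median difference was 0.12. Tspan14, a tetraspanin that carries the protease ADAM10, had 2418 and 2546 in spleen of mouse 1 and mouse 2, against 1819 and 1651 in blood (0.51 ± 0.12, SE, 2 arrays per tissue; adjusted p = 0.222). Tspan4 had 1036 and 1377 in spleen against 846 and 880 in blood (0.46 ± 0.16; adjusted p = 0.352), and Tspan3 had 1122 and 1361 in spleen against 954 and 1153 in blood. The tissues did not overlap for Tspan14 and Tspan4, picked in the same way. In the whole list both spleen arrays stood above both blood arrays for 7 of 17 and below for 3, beside 27.5% and 17.6%.

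Integrin ligands were tested for 6 of 15 genes listed, and 0 passed over all genes with limma, with 1 higher and 0 lower at an unadjusted p under 0.05. Vwf, the adhesive protein of platelet granules and a ligand of the fibrinogen receptor, had 2372 and 2727 in spleen of mouse 1 and mouse 2, against 1577 and 1501 in blood (0.72 ± 0.12, SE, 2 arrays per tissue; adjusted p = 0.150). Col1a2, a chain of collagen I, had 2303 and 2833 in spleen against 1743 and 2335 in blood, and Vtn, vitronectin, had 1724 and 1634 in spleen against 1924 and 1789 in blood. Col1a1, the other chain of collagen I, was below the filter, with 34.1 and 17.0 in spleen against 50.3 and 38.0 in blood. The fibrinogen chains Fga, Fgb and Fgg were below the filter.

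Of the 11 tested megakaryocyte markers, 10 had the higher array in spleen within both mice, beside 38.5% of all tested genes, and their median difference was 0.37. The estimates ranged widely. Treml1 had 1.61 ± 0.17 and Gp1bb, which belongs to the platelet receptor for von Willebrand factor, 1.06 ± 0.16 (SE, 2 arrays per tissue; adjusted p = 0.140 and 0.143 with limma). Clec1b, the podoplanin receptor of platelets, had 720 and 517 in spleen against 411 and 283 in blood (adjusted p = 0.305). Gp9, Pf4 and Nfe2 had estimates of 0.18, 0.16 and 0.08, and Nbeal2 had -0.23. A difference between these markers and the members was not tested.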

How the data were processed

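Each of the 4 samples was 1 Affymetrix mouse array of biotinylated cRNA from total RNA, per the labels' protocols. The authors deposited probe set intensity values on a linear scale. Their summarisation, background step and scaling are not given in the sources used here, and between 1.60% and 2.17% of an array's values lay below 0. No further scaling was applied. Negative values were raised to 0, and log2(intensity + 16) was computed, which understates changes of dim genes. Of 45101 probe sets, 34945 had 1 gene in the platform annotation, 932 several and 9224 none here, 64 controls included. Symbols were updated by Entrez identifier through a RefSeq table of GRCm38.p6, which held 34741. No probe set with several genes named a member.

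Genes whose mean log2 value reached the median of all probe sets (intensity 106) were tested for spleen against blood with limma 3.58.1 (lmFit, eBayes, two-sided) in R 4.3.3, tissue as the sole term, with Benjamini-Hochberg adjustment over all 11614 genes. The fit was tested on simulated data. Mouse number pairs the arrays, since the labels give the same animals for both tissues; the deviations of mouse 1 in spleen and blood correlated at r = 0.10 across genes. P-values measure the spread between these 2 mice only, and the number of arrays limits every value. Members and lists were chosen with earlier results of these data known. Named were all members, all other integrin chains tested, the leading 3 genes of each list of integrin genes by the smaller within-mouse difference, and the 3 nearest genes of the member with the widest range. Markers, Col1a1, Fga, Fgb and Fgg are named as examples. Alternatives changed the offset, scaling, filter, probe set summary, prior, block and the arrays used. Promoters were scanned with Python 3.11.15, for letters chosen after the sequences were seen.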

Additional observations from a re-analysis of the deposited data

How the results depend on the processing

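Under the 13 alternatives, 0 members passed over all genes, with limma in each. Genes passing over all genes were 45 with an intensity trend in the prior, 0 to 20 when 1 array was left out (20 without spleen replicate 1) and 0 otherwise, the fit with mouse as a replicate block included, which changed no call of a member. The block gave Itgb1 an adjusted p of 0.285. Members higher in spleen in both mice were 6 of all 10, the untested Itgb3 included. Of the 8 tested they were 5, beside 38.5% of all tested genes. The count over all 10 was 5 with quantile normalization, 7 with centred arrays and 5 with the mean of probe sets. Other offsets and filters left it at 6, but neither can turn a within-mouse difference of a given probe set. That count could not be had with an array left out. Itga6, Itgb1, Rap1b, Itgb3 and Itga2 kept their sign under all 13, but many of these settings could not have turned it. The other filters, the trend and the block leave the estimate itself unchanged. Leaving out 1 array cannot turn the sign where the tissues do not overlap, as for Itgb1, Rap1b, Itgb3 and Itga2. Nor can the mean of probe sets for Itga2, which has 1, or for Itgb3, whose other probe set was below 0 on all 4 arrays. Another offset cannot turn the sign of a given probe set where both mice differed in the same direction, as in these genes. The sign turned for Itga2b without spleen replicate 2 (-0.047 to 0.19 over the arrays left out), for Rasgrp2 without spleen replicate 2 and without blood replicate 1 (-0.27 to 0.15) and with the mean of probe sets (0.020), for Tln1 without spleen replicate 1 and without blood replicate 2 (-0.15 to 0.072) and with centred arrays (0.0060), for Fermt3 with the mean of probe sets (-0.0077) and for Cd9 with quantile normalization (-0.018). The cause was not tested. Itgb1 had adjusted p-values from 0.248 to 0.868. Where an array was left out, the lone array of its tissue was assumed to vary like the other tissue's. Signal near background limits Itgb3 and Itga2.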
